A study of Arabidopsis thaliana with 12 samples.

Results

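Transcripts whose signal was high in *Arabidopsis* seedlings and stayed within a narrow range under salt are described here. A member was any probe set, other than the Affymetrix controls, with a MAS5 signal of at least 3000 on all 12 ATH1 arrays and a highest signal no more than 1.5 times its lowest. Of 22746 probe sets, 541 reached the level on every array and 142 of these also met the ratio limit, or 26.2% of the high-level probe sets. The arrays came from whole seedlings in 4 groups of 3 biological replicates. These were the wild-type (Columbia) and line 20 of the *PtSnRK2.7* overexpressor, each mock-treated or given 200 mM NaCl for 2 days from an age of 7 days and harvested at 9 days. The overexpressor carried the poplar kinase gene behind the constitutive 35S promoter and is a single transgenic line, so genotype here means that line. The paper chose plants of the T2 generation for its salt treatment, and no array came from a vector control. Signals were linear MAS5 values that the authors had scaled, and their mean without the highest and lowest 2% lay between 500.04 and 500.05 on each array. Because the rule used every signal, all differences between groups among the members are descriptions.

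Many abundant transcripts in plant seedlings serve functions that every living cell needs. Ribosomes translate messenger RNA, the mitochondrial respiratory chain passes electrons from NADH to oxygen and pumps protons, and glycolytic enzymes break down sugar in the cytosol. Genes with steady transcript levels are also sought as reference genes, against which other transcripts are normalized in RT-qPCR. A transcript can be abundant without being steady, and the ribosomal protein and plastid-encoded transcripts described below include many of that kind.

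The 142 members had ratios of highest to lowest signal from 1.16 to 1.499, with a median of 1.39, and a median coefficient of variation of 9.96% over the 12 arrays. The median ratio was 1.90 among the 399 high-level probe sets above the limit and 2.99 among all 22746. Only 3 members had a ratio of at most 1.2, 28 had at most 1.3 and 78 had at most 1.4. The probe set annotation used here paired 46 members with 1 gene and 7 with several genes. It paired no gene with the other 89, which are reported without names. Whether those 89 lack a known gene or were left out of the annotation was not known. Thus 37.3% of the members had a paired gene, against 46.1% of the high-level probe sets above the ratio limit and 61.6% of all probe sets. The classes below describe the named minority. The 46 single genes lay on all 5 nuclear chromosomes, with 9, 4, 11, 11 and 11 genes on chromosomes 1 to 5.

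The steadiest member had a ratio of 1.16 and no gene paired with it. The next was the probe set shared by *UBC35* and *UBC36*, which encode ubiquitin-conjugating enzymes that form lysine-63-linked ubiquitin chains, with a ratio of 1.19. Its signals were 4033, 4036 and 3931 on the wild-type mock arrays, 3640.3, 3528 and 3533 on the wild-type salt arrays, 4052, 4013 and 4196 on the overexpressor mock arrays and 3713, 3959.8 and 3796 on the overexpressor salt arrays. The salt-treated wild-type arrays lay below all mock arrays of both genotypes, by 0.17 on the log2 scale of the group means against the wild-type mock group. *RBP45B*, which encodes an RNA-binding protein of the poly(A) RNA-binding RBP45 group, had a ratio of 1.198. Its signals were 3911, 4089 and 4127 on the wild-type mock arrays, 4647, 3905 and 4081 on the wild-type salt arrays, 4385, 4403 and 4398 on the overexpressor mock arrays and 3877, 4111 and 4274 on the overexpressor salt arrays. The wild-type mock and salt arrays overlapped for *RBP45B*, and the overexpressor mock arrays lay above both the wild-type mock and the overexpressor salt arrays. The next single-gene members were *AT4G20150* with a ratio of 1.21, *AT5G14030*, which encodes the beta subunit of the translocon-associated protein complex at the endoplasmic reticulum, with 1.22, and the complex IV gene *AT4G21105* with 1.26. *AT5G20160*, of the L7Ae family of RNA-binding proteins, and *AT5G64400*, which encodes a CHCH-domain protein, both had 1.27. *TPI* had 1.28, and *AT4G30010* and the complex IV gene *AT4G37830* both had 1.29.

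Nuclear genes of the mitochondrial respiratory chain had a lower median ratio at the high level, 1.39, than the ribosomal protein genes (1.67). The medians were closer after quantile normalization (1.401 and 1.46) and after median centring (1.49 and 1.598). The annotation paired 48 probe sets with a list of 70 loci for the respiratory chain complexes. Of these, 18 were at the high level and 16 were members. That was 88.9% of those at the high level, beside 26.2% of all high-level probe sets. The ratios of the 16 members ran from 1.26 to 1.499. The list, like the others used here, was drawn up after the members' identities were known, so its share is a description and no test was made of it. Both high-level probe sets that missed the ratio limit missed it narrowly. One was shared by the complex I genes *AT1G49140* and *AT3G18410*, with a ratio of 1.55, and the other was *AT1G51980*, which encodes an alpha subunit of the mitochondrial processing peptidase within complex III, with 1.58. Another 30 probe sets of the list fell below the level, and 5 of these met the ratio limit. The class was sensitive to the scale, since 13 of its 16 members met the ratio limit after quantile normalization and 9 after median centring of the arrays. Of the 18 at the high level 14 and 10 met it on these scales, beside 187 and 140 of all 541 high-level probe sets.

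**Figure D1:**
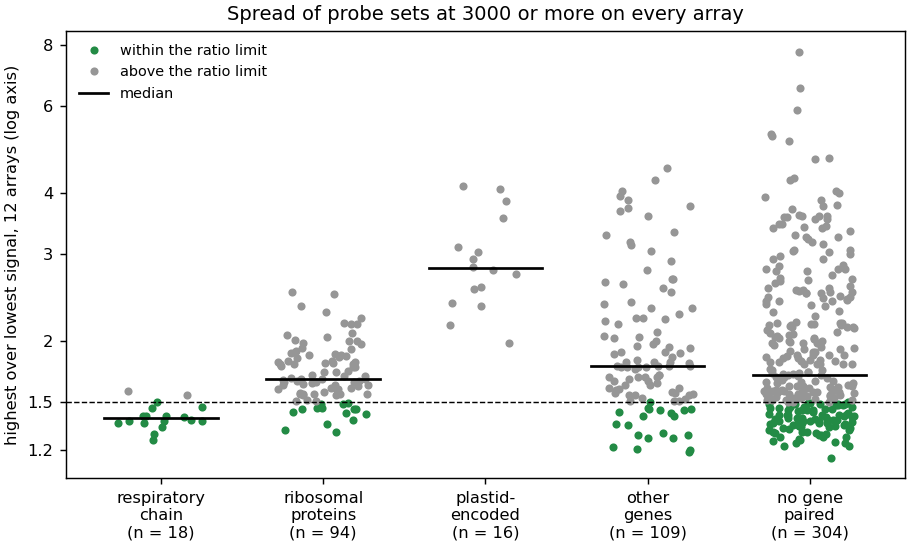
The ratio of highest to lowest signal over the 12 arrays (log axis) for the 541 probe sets at 3000 or more on every array, by class, with 1 point per probe set, a black bar at each class median and a dashed line at the limit of 1.5. The respiratory chain points lie between 1.26 and 1.58, whereas the 94 ribosomal protein points reach 2.51 and all 16 plastid-encoded points lie above the limit.

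Complex I, the NADH dehydrogenase that feeds electrons into the chain, contributed 8 members. *FRO1*, which encodes an accessory subunit, had the narrowest ratio among them, 1.33. Its signals were 4815, 3867 and 4933 on the wild-type mock arrays, 4894, 4561 and 4893 on the wild-type salt arrays, 4821, 3942 and 4599.5 on the overexpressor mock arrays and 4687, 4788 and 5161 on the overexpressor salt arrays, and the second replicate of each mock group was the low one. *AT5G52840* (ratio 1.38), *AT3G03100* (1.3996), *AT5G47570* (1.37), *AT1G76200* (1.404), *AT3G08610* (1.41) and *OEP16-3* (1.46) are further subunit genes. *OEP16-3* is a member of the family of inner membrane translocase proteins that is found in plant complex I. The 8 genes did not share a direction. In the wild-type the log2 differences between salt and mock means ran from -0.28 for *OEP16-3* to 0.39 for *AT5G11770*. In the overexpressor they ran from -0.22 for *AT1G76200* to 0.39 for *AT5G11770*.

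*AT5G11770*, which encodes the core complex I subunit of the PSST type that carries the last iron-sulfur cluster before ubiquinone, was close to the ratio limit because its mock and salt arrays formed separate groups. Its signals were 3952, 4298 and 4141 on the wild-type mock arrays, 5246, 5623 and 5363 on the wild-type salt arrays, 4327, 4203 and 3841 on the overexpressor mock arrays and 5394, 5233 and 5569 on the overexpressor salt arrays. Every salt array exceeded every mock array in both genotypes, and the difference was 0.39 ± 0.10 (SE of the limma fit) on the log2 scale in each. *CYTC-1*, which encodes the soluble electron carrier cytochrome *c*, was the last named member inside the ratio limit at 1.499. Its signals were 7993, 8061 and 8554 on the wild-type mock arrays, 11166, 9808 and 10155 on the wild-type salt arrays, 9585, 8979.6 and 8623 on the overexpressor mock arrays and 11124, 10481 and 11981 on the overexpressor salt arrays. The mock and salt arrays did not overlap in either genotype, with log2 differences of 0.34 ± 0.12 for the wild-type and 0.30 for the overexpressor. *CYTC-2*, the second cytochrome *c* gene, lay below the level with a ratio of 3.73.

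**Figure D2:**
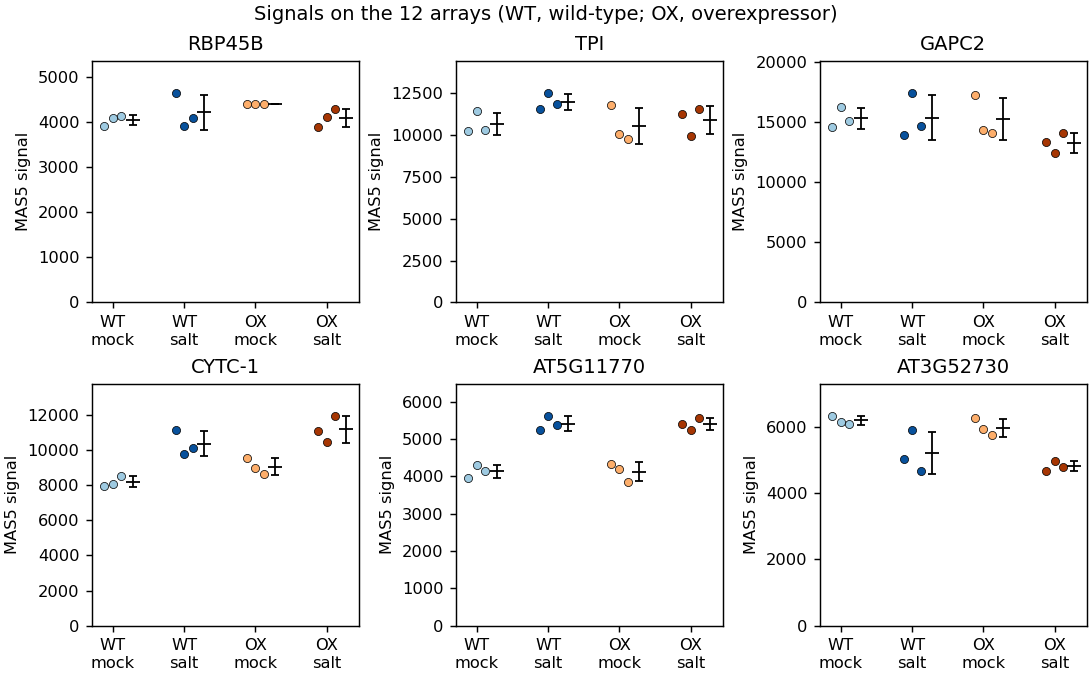
MAS5 signals on a linear scale from 0 for 6 members on the 12 arrays, with 1 dot per array, 4 groups of 3 arrays, and the group mean with its SD as the bar beside the dots. The groups of *RBP45B*, *TPI* and *GAPC2* lie close together, the salt arrays of *CYTC-1* and *AT5G11770* lie above the mock arrays of the same genotype, and those of *AT3G52730* lie below them.

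Complex III, which passes electrons from ubiquinol to cytochrome *c*, contributed 4 members. *MPPBETA*, the beta subunit of the processing peptidase that is built into plant complex III, had a ratio of 1.37, and *AT4G32470*, a small subunit of the QCR7 type, had 1.38. *AT3G10860* (QCR8 type) and *AT3G52730* (QCR9 type), with ratios of 1.36 each, were lower on the salt arrays on average. The signals of *AT3G52730* were 6351, 6163 and 6101 on the wild-type mock arrays, 5044, 5918 and 4676 on the wild-type salt arrays, 6287, 5933 and 5750.1 on the overexpressor mock arrays and 4689, 4982 and 4809.9 on the overexpressor salt arrays. Its mock and salt arrays did not overlap in either genotype, and the log2 difference of the means was -0.26 for the wild-type and -0.31 ± 0.11 for the overexpressor. Complex IV, the cytochrome *c* oxidase that reduces oxygen, contributed 3 members. *AT4G37830*, a COX6a subunit gene, had signals of 8842, 8899 and 9342 in the mock-treated and 10002, 10952 and 10804 in the salt-treated wild-type, and 9697, 8484 and 8593 in the mock-treated and 10443, 9745 and 10897 in the salt-treated overexpressor. Its salt arrays were above all mock arrays of the same genotype, with log2 differences of 0.23 and 0.22. *AT4G21105* (COX7a type, ratio 1.26) had log2 differences of -0.05 and -0.19, and *AT2G47380* (COX5c type, ratio 1.41) had 0.04 and 0.16. The members of complexes I, III and IV therefore held genes on both sides of 0. Over all 16 members of the class, 9 had a positive difference in wild-type seedlings and 10 in overexpressor seedlings, with medians of 0.04 and 0.11. The medians were 0.09 and 0.15 after quantile normalization and 0.08 and 0.25 after median centring.

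No probe set paired with a complex II gene of the respiratory chain list was a member, and members without a paired gene could not be placed in any complex. Complex II is the succinate dehydrogenase that links the chain to the tricarboxylic acid cycle. All 6 probe sets paired with its listed genes lay below the level, with ratios from 1.70 to 19.2. *SDH1-1*, its flavoprotein subunit, had a lowest signal of 1913 and a ratio of 3.12. The annotation paired 3 probe sets with a list of 9 loci for the mitochondrial ATP synthase, and none was a member. Members outside that list were not checked for a role in this enzyme. The one at the high level, shared by the beta subunit genes *AT5G08690* and *AT5G08670*, had a ratio of 1.52, and *AT5G47030*, the delta subunit gene, had a ratio of 1.31 and a lowest signal of 2939, just under the level.

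Cytosolic ribosomal protein genes were the most numerous named class at the high level, and the share within the ratio limit depended on the scale. The annotation paired 142 probe sets with genes on a list of 211 loci. Of these, 94 reached the level on all arrays and 16, or 17%, were members, beside 26.2% of all high-level probe sets. After quantile normalization 49 of the 94 met the ratio limit, beside 187 of all 541 high-level probe sets. After median centring 25 of the 94 met it, beside 140 of the 541. The members were probe sets for large subunit proteins L4, L10a (*PGY1*), L15, L17, L18, L19, L28 and L37, the stalk proteins P0 and P1, and small subunit proteins S2, S3a, S13, S20 and S29. The steadiest were *AT4G02230* (L19) with a ratio of 1.302, *AT3G47370* (S20) with 1.32, *PGY1* with 1.35 and *AT3G04840* (S3a) with 1.38. Most families had other high-level probe sets outside the limit. The S3a family was an exception with both of its probe sets, *AT3G04840* and *AT4G34670*, inside it. L17, L18, L19, P0 and S13 had 1 high-level probe set each, which was the member. The S2 and S29 probe sets are shared by 4 and 3 genes, and the ribosomal genes of a family are close copies, so signals within a family may be mixed.

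*AT3G47370*, the S20 gene, had signals of 5654, 5559 and 5756 on the wild-type mock arrays, 5373, 5064 and 5234 on the wild-type salt arrays, 5739, 5208 and 4769 on the overexpressor mock arrays and 4368, 4709.6 and 4811 on the overexpressor salt arrays. The overexpressor salt arrays overlapped the mock arrays only through the low mock replicate 3, and the wild-type salt arrays all lay below the wild-type mock arrays. *AT4G29410*, an L28 gene with a ratio of 1.49, had signals of 5063, 4961 and 5327 on the wild-type mock arrays, 4031, 4223 and 4098 on the wild-type salt arrays, 5554, 5319 and 4199 on the overexpressor mock arrays and 3961, 3737 and 4244 on the overexpressor salt arrays. The wild-type mock and salt arrays did not overlap, whereas the third overexpressor mock array lay below the highest salt array. The log2 differences were -0.31 for the wild-type and -0.33 ± 0.12 for the overexpressor. *AT3G09200*, which encodes the stalk protein P0 that helps recruit elongation factors, went the other way in the wild-type. Its signals were 11939.5, 13679 and 12192 on the wild-type mock arrays, 15492, 15069 and 16629 on the wild-type salt arrays, 15079, 12627 and 11152 on the overexpressor mock arrays and 14591, 12338 and 15486 on the overexpressor salt arrays, with log2 differences of 0.32 and 0.13. The wild-type groups did not overlap and the overexpressor groups did.

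On the deposited scale 13 of the 16 ribosomal members had a lower mean on the salt arrays of the wild-type and 15 of 16 on those of the overexpressor. The counts were 7 and 10 after quantile normalization and 13 and 13 after median centring. The median log2 differences were -0.11 and -0.26. They became 0.03 and -0.04 after quantile normalization and -0.07 and -0.12 after median centring. All high-level probe sets of the list had medians of -0.30 and -0.43. Those medians were -0.17 and -0.26 after quantile normalization and -0.25 and -0.29 after median centring. Of the 78 that were not members 77 had a lower salt mean in wild-type seedlings and 78 in overexpressor seedlings. The counts for these 78 were 65 and 75 after quantile normalization and 74 and 77 after median centring. The rule, by its ratio limit, kept the ribosomal probe sets with small differences. Among all 541 high-level probe sets 335 had lower salt means in wild-type seedlings and 348 in overexpressor seedlings. Those counts were 285 and 296 after quantile normalization and 317 and 302 after median centring. The first overexpressor mock array was the highest of the 3 in its group for all 16 ribosomal members. Without it, 33 ribosomal probe sets met the rule in place of 16, and 17 respiratory chain probe sets in place of 16.

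**Figure D3:**
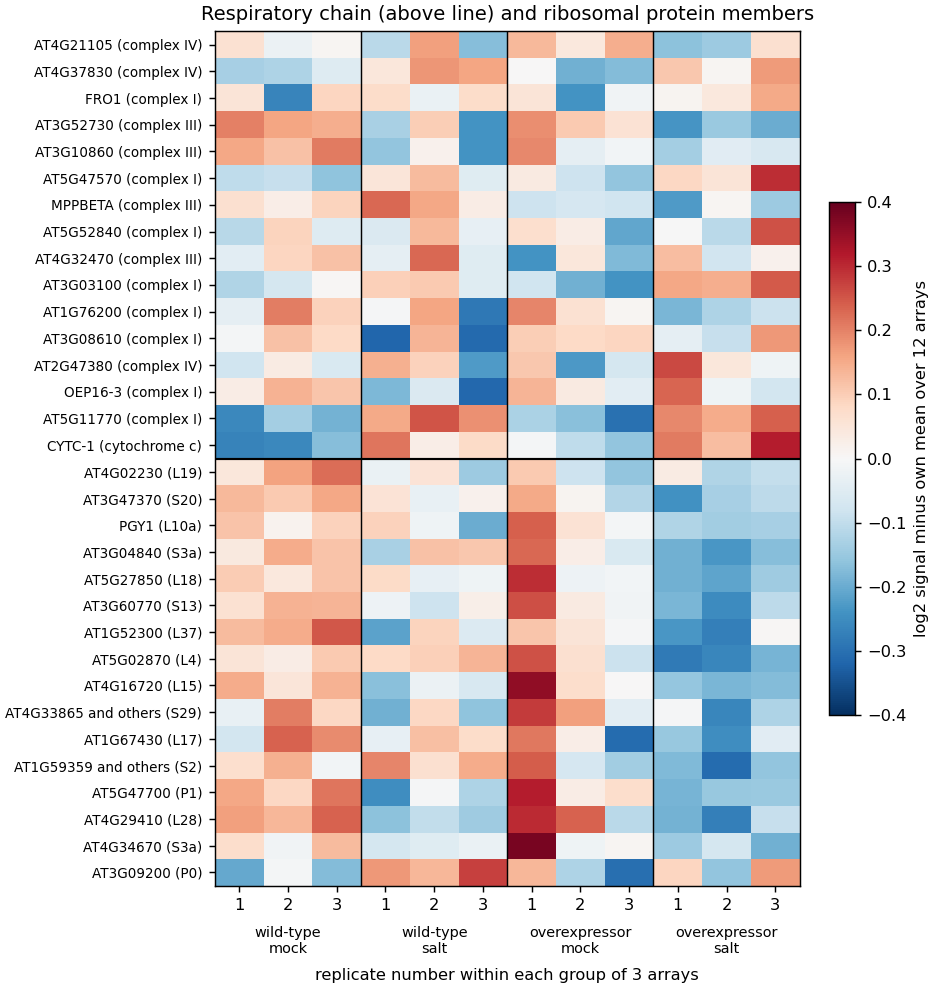
Log2 signal minus the probe set's own mean over the 12 arrays (color, from -0.4 to 0.4) for the 16 respiratory chain members, above the line, and the 16 ribosomal protein members, below it, each ordered by its ratio. Columns are arrays by group and replicate number. Most ribosomal rows are darkest red at overexpressor mock replicate 1 and blue in the overexpressor salt columns, while the respiratory chain rows hold both directions. On the quantile-normalized scale 10 of the 16 ribosomal members, not 15, had a lower salt mean in the overexpressor. After median centring 13 did.

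Among translation factors, 3 of 6 high-level probe sets were members. They were *AT2G04520*, an eIF1A gene (ratio 1.298), *AT5G54940*, an eIF1 gene (1.498), and the probe set shared by *AT1G57720* and *AT1G09640*, which encode the gamma subunit of elongation factor 1B (1.46). The probe set shared by the 4 genes for elongation factor 1A, a common RT-qPCR reference, lay just outside with a ratio of 1.55, and so did the eIF1A gene *AT5G35680* with 1.505. Both cytosolic glycolysis probe sets paired with a gene were members. *TPI* encodes triosephosphate isomerase, and its signals were 10264, 11442 and 10304 in the mock-treated and 11590.2, 12543 and 11836 in the salt-treated wild-type, and 11777, 10069 and 9774 in the mock-treated and 11236, 9950.4 and 11545 in the salt-treated overexpressor. *GAPC2* encodes cytosolic glyceraldehyde-3-phosphate dehydrogenase, and its signals were 14621, 16294 and 15114 in the mock-treated and 13914, 17479 and 14719.5 in the salt-treated wild-type, and 17274, 14381 and 14094 in the mock-treated and 13373, 12450.5 and 14094 in the salt-treated overexpressor. The wild-type salt arrays of *TPI* lay above the wild-type mock arrays and above the overexpressor salt arrays, and its mock and salt arrays overlapped in the overexpressor. The log2 differences of *GAPC2* were 0.00 and -0.19, with overlap in the wild-type, while in the overexpressor the lowest mock and the highest salt signal were almost equal.

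Several remaining members belong to protein handling, chromatin and membrane transport. The probe set shared by *AT5G50460* and *AT4G24920*, which encode the gamma subunit of the Sec61 channel for proteins entering the endoplasmic reticulum, had a ratio of 1.35. A second probe set for the same pair of genes had 1.75 and log2 differences of 0.41 and 0.58, compared with -0.13 and -0.10 for the member, so the probe sets disagreed. The histone variant H3.3 is placed in chromatin outside replication. Its 3 genes *AT5G10980*, *AT4G40040* and *AT4G40030* shared 3 probe sets. The 2 members had ratios of 1.43 and 1.46 and log2 differences of 0.12 and 0.07 for the wild-type and of -0.24 and -0.18 for the overexpressor. The remaining one had a ratio of 2.21 and differences of -0.66 for the wild-type and -0.96 for the overexpressor, so the direction differed between probe sets for the wild-type and was shared for the overexpressor. For these genes the probe sets differed in whether they met the ratio limit.

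*AT4G26710*, which encodes subunit e of the vacuolar proton pump that drives sodium uptake into the vacuole by antiporters, had a ratio of 1.43. Its signals were 4008, 4255 and 4332 on the wild-type mock arrays, 4045, 5106 and 4262 on the wild-type salt arrays, 3911, 4120.0 and 4009.7 on the overexpressor mock arrays and 5582, 5379.8 and 5557 on the overexpressor salt arrays. All 3 overexpressor salt arrays exceeded every other array, and the log2 difference was 0.46 ± 0.11 in the overexpressor and 0.08 in the wild-type, where the groups overlapped. It was the only member among 5 high-level probe sets of 13 paired with genes of the pump, and the others had ratios up to 1.93. Members outside the listed classes included *AT1G78040*, of the Ole e 1 family of pollen allergen-like proteins (ratio 1.35), *AT1G26550*, a parvulin-type peptidyl-prolyl isomerase gene (1.41), *AT4G23670*, of the major latex protein family (1.44), *AT3G48140*, of the B12D family (1.45), and *AT1G72020* (1.44).

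Of 23 genes that are often used as RT-qPCR references, 9 had a probe set paired with them alone, and *GAPC2* was the only one at the high level and the only member. Among the other 8, the ratios of *AT2G28390* (a SAND family gene, 1.43) and *PEX4* (ubiquitin-conjugating enzyme 21, 1.47) were within 1.5, but their lowest signals were 434 and 1151. *AT5G46630* had 1.52, *AT4G34270* (TIP41-like) 1.57, *AT5G15710* 1.85, *AT4G26410* 1.99, *TUB6* (a beta-tubulin) 2.07 and *AT4G33380* 3.55. *AT4G34270* had log2 differences of opposite sign, -0.35 for the wild-type and 0.38 for the overexpressor. The median ratio was 2.99 among all probe sets and 1.70 among those at the high level, so the ratios of dimmer probe sets are not on the same footing.

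None of the 16 high-level probe sets for plastid-encoded genes was a member, and their ratios ran from 1.98 for *rpl32* to 4.14 for *ndhI*. Of the markers for shoot and root fixed for the tissue check, 1 had a probe set in the annotation used here. *PYK10*, a root beta-glucosidase gene, had a lowest signal of 12256 and a ratio of 1.55. The 5 shoot markers had none paired with them, while plastid-encoded transcripts were at the high level on every array. In whole seedlings, fewer cells of a type and less RNA per cell cannot be told apart.

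The values just on either side of the limits were close. Inside the ratio limit lay *AT3G09200* (1.49), *AT5G54940* (1.498) and *CYTC-1* (1.499), and outside it *AT5G35680* (1.505) and a probe set for the proteolipid genes *VHA-C3*, *AVA-P1* and *AT2G16510* of the vacuolar pump (1.505). The lowest signal of *AT5G20160*, 3043, was just inside the level, and those of *PMM* (2966), *AT5G20500* (2955), *AT5G47030* (2939) and *ACLA-1* (2910) were just below it.

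On the log2 scale the members' salt differences spanned -0.31 to 0.44 for the wild-type. For the overexpressor they spanned -0.38 to 0.46, and the median was -0.04 for each. The medians became 0.06 and 0.09 after quantile normalization and 0.00 and 0.10 after median centring. Median centring moved the overexpressor median of all probe sets from -0.09 to 0.05. In the fit of all probe sets with limma, at an adjusted p under 0.05, 5 members were called higher under salt in the wild-type (background 17.2% of all probe sets) and 2 lower (background 21.9%). In the overexpressor 12 were called higher (background 17.1%) and 6 lower (background 24%). After quantile normalization the calls were 12 higher (background 17.7%) and 1 lower (background 21.6%) for the wild-type. For the overexpressor they were 29 higher (background 18.1%) and 1 lower (background 21.9%). After median centring they were 5 (background 18.2%) and 0 (background 20.7%) for the wild-type, and 23 (background 21.1%) and 0 (background 19.5%) for the overexpressor. The named ones on the deposited scale were *AT5G11770* in both genotypes, *CYTC-1* in the wild-type, and *AT4G26710*, *AT3G03100*, *AT3G52730* and *AT4G29410* in the overexpressor. A member cannot vary by more than 1.5 times, so nothing is read from these shares. The calls depended on single arrays. Without wild-type salt replicate 2, 20 members were called for the wild-type and 27 for the overexpressor. Over all probe sets the calls also rose, from 8904 to 10107 and from 9351 to 10164. Leaving out any 1 of the other 5 wild-type arrays, overexpressor mock replicate 2 or 3, or overexpressor salt replicate 1 or 2 gave 2 to 4 wild-type calls in place of 7. Over all probe sets 7500 to 8650 were called in these runs. Leaving out any 1 of the 6 overexpressor arrays gave 8 to 11 overexpressor calls in place of 18, with 7931 to 8332 over all probe sets.

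By the plain criterion that the 3 salt arrays do not overlap the 3 mock arrays, 23 members were higher in the wild-type (background 21.1%) and 25 lower (background 26.8%). The split was 35 higher (background 21.5%) and 10 lower (background 26%) after quantile normalization, and 30 (background 21.9%) and 17 (background 25.7%) after median centring. In the overexpressor 28 were higher (background 23.3%) and 36 lower (background 31.7%), and the majority turned under both other scales, to 53 higher (background 25.1%) and 14 lower (background 29.3%) after quantile normalization and to 38 (background 28.4%) and 5 (background 25.9%) after median centring. The direction of the mean difference was the same in both genotypes for 102 of the 142 members (71.8%), and for 87.2% of the high-level and 77.7% of all probe sets. Under mock treatment, 10 members were higher in the overexpressor than in the wild-type without overlap (background 10.5%) and 13 lower (background 9.72%). limma called 0 members higher (background 0.132%) and 0 lower (background 0.431%) for this genotype comparison, with 2 and 4 at an unadjusted p under 0.05. The methods' t-test called 0 of all 22746 probe sets here after adjustment, so its 0 members carry no information. For the interaction of genotype and salt limma called 0 higher (background 0.246%) and 0 lower (background 0.0528%), with 3 and 1 at an unadjusted p under 0.05. The 0.46 and 0.08 of *AT4G26710* were thus not shown to differ between the genotypes.

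**Figure D4:**
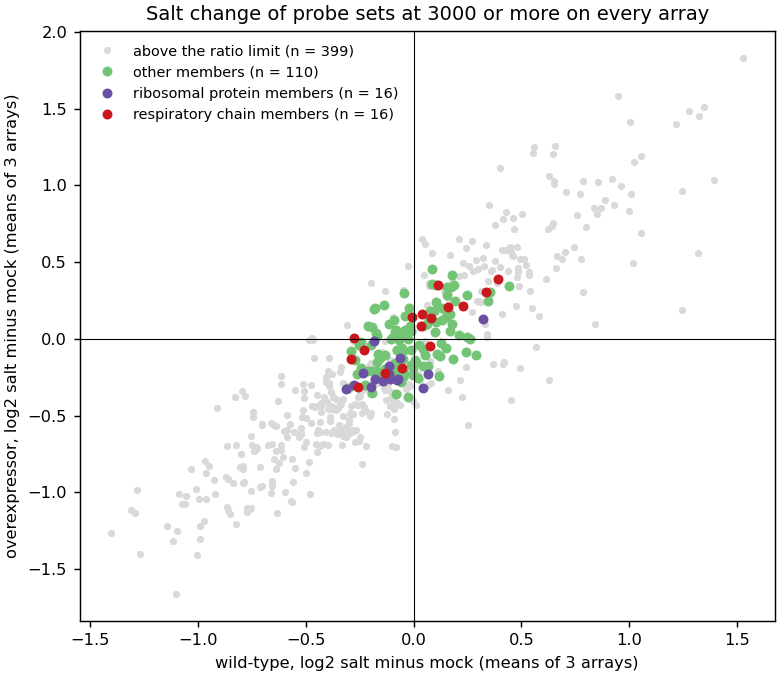
Log2 difference between the means of 3 salt and 3 mock arrays in the wild-type (horizontal) and the overexpressor (vertical) for the 541 high-level probe sets, with the 142 members in color. The rule keeps the members near the center, between -0.31 and 0.44 in the wild-type. Most ribosomal members lie below 0 on both axes on this scale. Their wild-type median was 0.03 after quantile normalization and -0.07 after median centring.

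The stability of probe sets chosen in 1 genotype could be read in the other, whose arrays the choice had not used. With the rule applied to the 6 wild-type arrays, 289 probe sets were chosen, and 182 of them (63%) also stayed within a ratio of 1.5 on the 6 overexpressor arrays. Among all probe sets at the high level on the overexpressor arrays the share was 40.3%. These shares rest on unlike sets, since 17 of the 289 fell below the level on the overexpressor arrays. The rest of the 289 are counted in both shares, and no test was made of the difference. In the other direction 259 were chosen on the overexpressor arrays and 180 (69.5%) stayed within the limit on the wild-type arrays, against 49.4% of those at the high level there. Of the 259, 37 fell below the level on the wild-type arrays. The share carried from the wild-type was 82.4% without overexpressor mock replicate 1, when the share among all high-level probe sets was 52.8%.

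The rule also bounds the spread between replicates. The median SD of the log2 signal among members was 0.07 for the wild-type mock, 0.11 for the wild-type salt, 0.10 for the overexpressor mock and 0.09 for the overexpressor salt group, while among all 541 high-level probe sets it was 0.08, 0.16, 0.14 and 0.10 in the same order. The extremes were not spread evenly over the arrays. Overexpressor mock replicate 1 held the highest signal of 36 members, and wild-type salt replicate 3 and overexpressor salt replicate 2 each held the lowest of 25. The labels name no batch.

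The control probe sets lie outside the rule. The bacterial hybridization spike-ins are added in a fixed amount, and their geometric mean over 9 probe sets was 878 to 1063 on the wild-type mock, 808 to 917 on the wild-type salt, 832 to 933 on the overexpressor mock and 766 to 814 on the overexpressor salt arrays. The groups overlapped in the wild-type and did not in the overexpressor. The ratio of 3' to 5' signal of the ubiquitin control was 1.99 to 2.24 on the 6 mock arrays and 1.41 to 1.83 on the 6 salt arrays, without overlap. That of the GAPDH control was 1.37 to 1.77 on the mock and 1.21 to 1.43 on the salt arrays. That of the actin control went both ways, from 6.86 ± 1.04 (SD, n = 3) under mock to 7.54 ± 0.73 under salt in wild-type seedlings, with overlap, and from 6.16 to 8.89 under mock to 5.66 to 6.15 under salt in overexpressor seedlings, without overlap. The part of these differences in the members' differences was not tested.

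**Figure D5:**
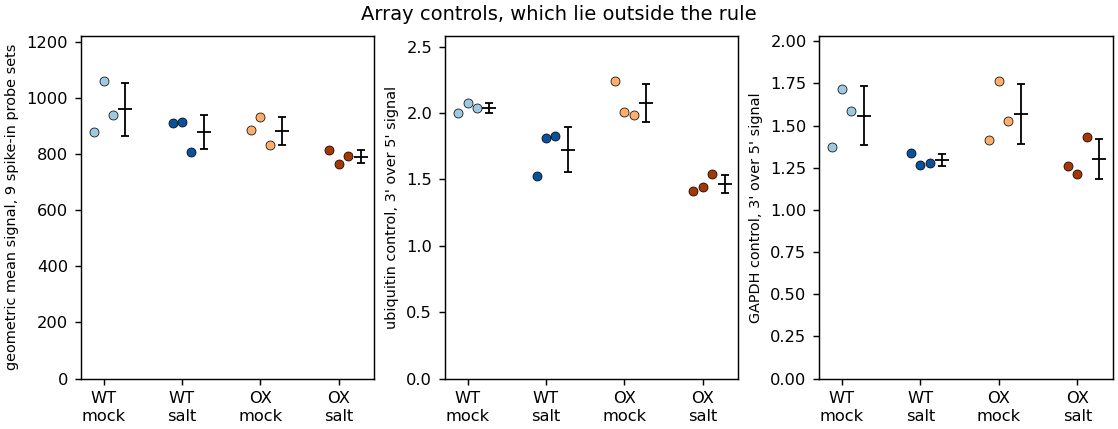
Control probe sets on the 12 arrays, with 1 dot per array and the mean with SD beside each group of 3. The panels show the geometric mean signal of 9 spike-in probe sets, and the ratio of 3' to 5' signal for the ubiquitin and GAPDH controls (linear axes from 0). All 6 mock arrays lie at 1.99 or above for ubiquitin and all 6 salt arrays at 1.83 or below.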

How the data were processed

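RNA from 12 samples of *Arabidopsis* seedlings was hybridized to Affymetrix ATH1 GeneChips. The authors deposited linear intensity values, the MAS5 signals of each array, after scaling the arrays to a shared trimmed mean. The MAS5 version is not given in the sources used here. Precision is limited by the number of arrays. The 64 control probe sets were left out. Log2 signals of the other 22746 were fitted as 4 group means with limma 3.58.1 in R 4.3.3, with an intensity trend, and p-values were adjusted by Benjamini-Hochberg over all of them, two-sided. The code of the fit was tested on simulated data. That simulation changed a small set of high-level probe sets in a single group, unlike these data. It therefore says nothing about the results here.

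The members and gene lists were chosen with earlier results of these data known. Genes were named from the probe set annotation used here, and roles are background knowledge of the loci. Named genes were members with 1 gene and the smallest ratios, up to 4 per class, those next to the limits, the called members with the largest differences, and the reference genes. Further members and probe sets shared by several genes were added after their values were seen. Alternatives changed the scaling, the limits, the fit and the arrays included. Sequences were not analysed here.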

Additional observations from a re-analysis of the deposited data

How the results depend on the processing

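The count of 142 members depended on the limits. It was 237 at a level of 2000, 75 at a level of 5000, 28 at a ratio of 1.3, 369 at a ratio of 2, and 353 when the rule was applied to the 4 group means. It was 186 after quantile normalization, with 115 of the original members kept, and 143 after median centring, with 105 kept. Leaving out 1 array at a time gave 143 to 182. A member always stays within the rule when an array is left out, so such counts could not fall. The 16 ribosomal protein members became 49 after quantile normalization, 25 after median centring, 0 at a ratio of 1.3 and 82 at a ratio of 2, and 16 to 33 without single arrays. The 16 respiratory chain members became 14 after quantile normalization, 10 after median centring, 2 at a ratio of 1.3 and 18 at a ratio of 2. Without single arrays they were 16 to 17, where the count could not fall. These class counts were added after the data were seen.

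The 7 members called for salt in the wild-type were 13 after quantile normalization, 16 with only probe sets above the 40th percentile, and 2 with only the 2 groups compared. Over all probe sets 8904 were called in the main fit, and 8931, 7871 and 6923 in those settings. The methods' t-test after adjustment called 0 members of 4 probe sets in all for the wild-type, and 14 members of 6099 for the overexpressor. Without single arrays the wild-type calls ranged from 2 to 20 among members and from 7500 to 10107 over all probe sets. The 18 called in the overexpressor were 30 after quantile normalization and 30 with only probe sets above the 40th percentile, and 8 to 27 without single arrays. Over all probe sets 9351 were called in the main fit, and 9113, 7980 and 7931 to 10164 in those settings. With the replicate number as a block, 2 wild-type and 11 overexpressor calls were made among members, beside 8603 and 9023 over all probe sets. No correlation between same-numbered arrays exceeded 0.09 in size, so the numbers were not taken as pairs. The genotype comparison and the interaction had 0 called members in every alternative run. Over all probe sets these runs called 0 to 365 for the genotype comparison and 3 to 760 for the interaction. With so few calls in all, nothing is read from the 0 members. The share carried from wild-type to overexpressor arrays stayed between 59.8% and 82.4% without single arrays, beside 40.3% to 52.8% of high-level probe sets. The cause of these changes was not tested. The promoter window alternative was not run, because no promoter sequences were used here.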
